A study of Mus musculus with 4 samples.

Results

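The genes described here are the inhibitors of cyclin-dependent kinases, Trp53 and the pocket proteins, 10 genes chosen by name as the brakes of the cell cycle between G1 and S phase. A member counted as measured when the annotation of the array gave it a probe set with a single gene symbol, and 9 of the 10 were: the Cip/Kip genes Cdkn1b and Cdkn1c, the Ink4 genes Cdkn2a, Cdkn2b, Cdkn2c and Cdkn2d, and the pocket protein genes Rb1, Rbl1 and Rbl2, out of 19938 genes in all. Cdkn1b had 2 probe sets and the others 1 each. Trp53 was not analysed here. All 9 passed filters at the 25th percentile and at the median of mean expression.

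The cells were BCR-ABL leukemia stem cells from a transplantation model of chronic myeloid leukemia. Marrow from C57BL/6 (B6) donors, called WT, or from Hif1a-/- donors was taken after 5-fluorouracil treatment, infected with a retrovirus carrying BCR-ABL/GFP and given to B6 recipients, so the recipients' own cells carried Hif1a in both groups. On day 14 after transplantation, marrow cells were sorted as GFP+Lin-c-Kit+Sca-1+. The labels give an age of 8 weeks and the strain C57BL/6 (B6) for both groups, and do not say how Hif1a was deleted or whether animals were pooled. There were 2 samples a group, hybridised to whole-transcript Affymetrix arrays, 1 array a sample. No label says that the biological replicates came from separate animals, so a p-value here reflects the spread between these samples only.

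Cyclin D with CDK4 or CDK6, and later cyclin E with CDK2, phosphorylate the pocket proteins. Unphosphorylated pocket proteins hold E2F factors and keep genes of DNA replication silent, and their phosphorylation lets the cell enter S phase. Ink4 proteins block CDK4 and CDK6, and Cip/Kip proteins bind cyclin-CDK complexes more broadly. The Cdkn2a locus encodes 2 unrelated proteins from separate promoters: p16Ink4a, a CDK inhibitor, and p19Arf, which frees p53 from its ubiquitin ligase Mdm2. In blood stem cells, Cdkn1b and Cdkn1c are known for holding cells in quiescence. The design asks which genes differ between leukemia stem cells with and without Hif1a, which encodes the part of HIF-1 that is destroyed when oxygen is plentiful.

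Promoter sequences from RefSeq (GRCm38.p6), from 250 bases before to 50 bases after the start, were found for 7 of the 9 measured genes, 9 promoters in all. The 4 printed here are the pair of Cdkn2a starts, which share 1 probe set on the array, that of Cdkn1b, the member with the largest difference, and that of Rbl1. Capitals mark the core of the HIF site (ACGTG or GCGTG) and an E2F site (TTTCCCGC, TTTGGCGC, TTTCGCGC or TTTGCCGC), searched on both strands, with overlapping matches of a factor counted once. No HIF match overlapped an E2F match in these promoters.
Cdkn2a, upstream start (Arf), chr4:89294570-89294869, minus strand: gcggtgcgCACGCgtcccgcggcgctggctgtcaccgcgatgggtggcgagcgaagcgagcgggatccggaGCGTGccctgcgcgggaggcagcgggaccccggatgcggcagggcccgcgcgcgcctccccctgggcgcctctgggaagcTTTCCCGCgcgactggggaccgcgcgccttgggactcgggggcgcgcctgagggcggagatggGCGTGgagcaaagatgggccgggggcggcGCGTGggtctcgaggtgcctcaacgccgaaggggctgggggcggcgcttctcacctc
Cdkn2a, downstream start (Ink4a), chr4:89282143-89282442, minus strand: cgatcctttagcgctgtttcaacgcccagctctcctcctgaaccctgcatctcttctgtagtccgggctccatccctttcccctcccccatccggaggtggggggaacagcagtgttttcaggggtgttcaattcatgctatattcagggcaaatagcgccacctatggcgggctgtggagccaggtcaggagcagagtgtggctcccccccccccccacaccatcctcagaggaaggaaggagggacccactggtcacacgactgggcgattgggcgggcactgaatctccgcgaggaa
Cdkn1b, chr6:134920151-134920450, plus strand: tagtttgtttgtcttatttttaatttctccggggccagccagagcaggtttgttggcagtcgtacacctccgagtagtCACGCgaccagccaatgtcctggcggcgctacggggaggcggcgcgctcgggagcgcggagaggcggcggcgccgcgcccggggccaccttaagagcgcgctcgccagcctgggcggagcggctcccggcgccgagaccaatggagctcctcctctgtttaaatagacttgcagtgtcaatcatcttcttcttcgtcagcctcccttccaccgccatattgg
Rbl1, chr2:157204485-157204784, minus strand: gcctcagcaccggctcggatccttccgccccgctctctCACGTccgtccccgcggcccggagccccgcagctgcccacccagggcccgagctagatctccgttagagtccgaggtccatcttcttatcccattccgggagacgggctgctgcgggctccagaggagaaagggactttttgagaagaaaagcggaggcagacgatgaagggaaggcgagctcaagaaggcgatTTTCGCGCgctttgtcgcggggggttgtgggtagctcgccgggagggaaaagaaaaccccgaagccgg

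The Arf promoter held 4 HIF cores and 1 E2F site, and the Ink4a promoter held neither. Cdkn1b held 1 HIF core, and Rbl1 held 1 HIF core and 1 E2F site. A HIF core stood in 8 of the 9 member promoters, and in 43.8% of the 32851 promoters in the table. An E2F site stood in 2 of the 9 and in 2.26% of all. The 9 member promoters ran from 44.0% to 77.0% G and C, highest for Arf, and the median over all promoters was 52.7%. The shares over all promoters were not matched for G and C. The matches describe the sequence only.

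The arrays differed in ways the genotype does not describe. The 9 measured granulocyte and monocyte markers of 10 listed averaged 12.61 and 12.13 on WT replicates 1 and 2 and 12.51 and 12.44 on Hif1a-/- replicates 1 and 2. The neutrophil antigen gene Ly6g, gated against in the sort, read 13.10 and 10.64 in WT and 11.74 and 11.64 in Hif1a-/- cells, and the 8 measured lineage antigens of 10 averaged 9.44, 8.76, 9.08 and 9.01 in the same order. On a list of 6 stem and progenitor cell genes, 5 were measured: Kit, Cd34, Flt3, Cd48 and Slamf1. Only Kit of these encodes an antigen of the sort gate, and the Sca-1 gene Ly6a was not measured. Kit read 10.32 and 11.07 in WT and 10.95 and 10.61 in Hif1a-/- cells. The 5 genes averaged 9.73 and 10.87 on the WT arrays and 10.15 and 10.39 on the Hif1a-/- arrays. In each of these averages the WT arrays lay on opposite sides of the Hif1a-/- pair. Within the granulocyte and monocyte list, Ltf, Camp, S100a8 and S100a9 were highest on WT replicate 1, while Elane, Mpo, Prtn3 and Ctsg were lowest there. Ltf, of late neutrophil granules, read 13.52 and 11.47 in WT and 12.74 and 12.21 in Hif1a-/- cells, and Mpo, of early granules, 12.97 and 13.67 against 13.52 and 13.59. Xist, expressed from the inactive X chromosome of females, read 7.12, 7.76 and 6.68 on the first 3 arrays and 11.56 on Hif1a-/- replicate 2, and the Y-linked Eif2s3y read 9.99, 10.15, 10.18 and 7.89. Between genotypes, 7 measured erythroid markers of 10 averaged 10.20 and 10.09 in WT and 10.83 and 10.52 in Hif1a-/- cells, 10 mast cell and basophil markers 11.67 and 11.64 against 11.02 and 11.39, and 7 dendritic cell markers 9.25 and 9.26 against 8.88 and 8.81. The part of these differences in the members' values was not tested, and in sorted bulk cells fewer cells of a type and less RNA per cell cannot be told apart. Hif1a read 11.34 and 11.50 in WT and 11.25 and 11.39 in Hif1a-/- cells (limma p 0.502), and the labels do not name the deleted exons.

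None of the 9 measured genes differed between Hif1a-/- and WT cells past the threshold, a limma p adjusted over all genes under 0.05. The same was true of all 19938 genes, of which 0% were called. At an unadjusted limma p under 0.05 there were 334 genes (1.68%) and 0 of the 9 members, whose p ran from 0.137 to 0.943 and whose adjusted p was 0.999 throughout. These counts use each gene's probe set of highest mean. The other Cdkn1b probe set had a ratio of 0.657 (limma p 0.00528, not past the threshold once adjusted over all probe sets). On the sets of highest mean, the ratio of Hif1a-/- to WT lay between 0.849 for Cdkn1b and 1.08 for Cdkn2a. Each member's 95% interval from limma's moderated variance ended between 1.07 and 1.43 on the upper side. On the lower side it ended between 0.626 and 0.839. These are intervals of single genes. Values are log2 RMA units, in which a difference of 1 is a doubling of the signal, and RMA draws small differences of dim genes together.

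**Figure D1:**
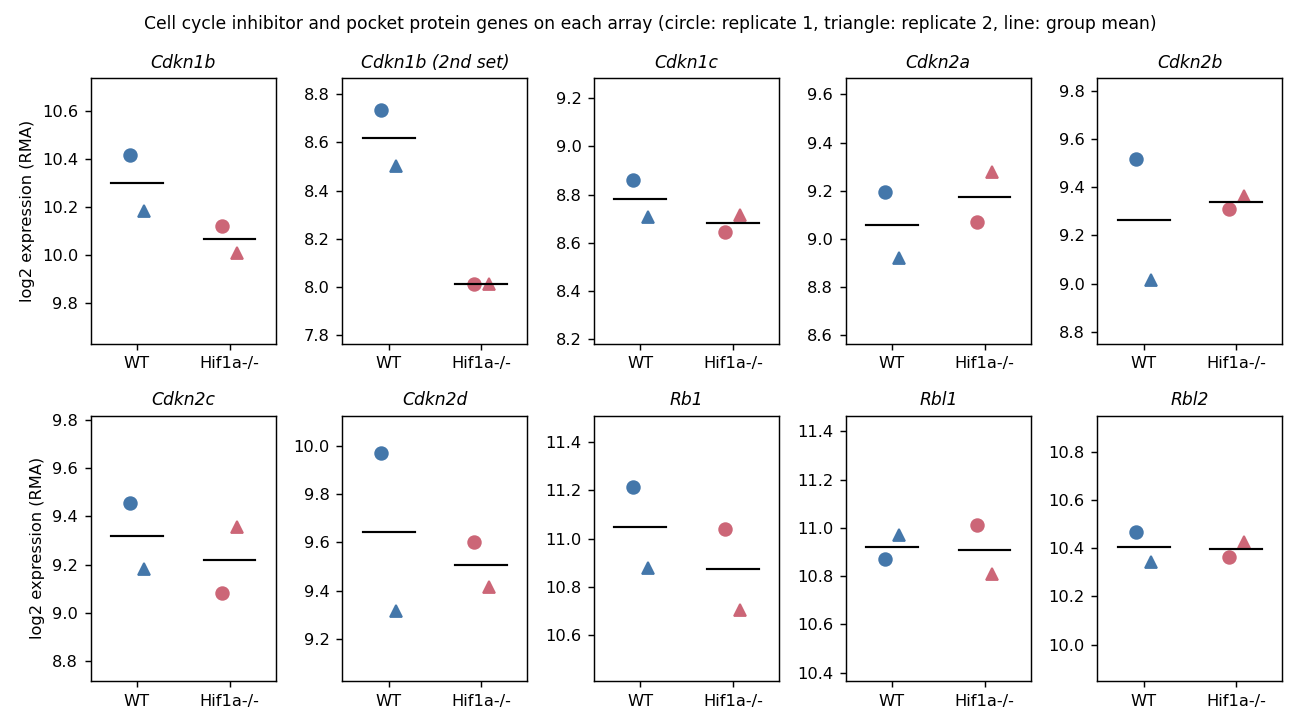
Log2 RMA expression of each member (y axis, every panel spanning the same range) in WT and Hif1a-/- cells, with a circle for replicate 1, a triangle for replicate 2 and a line for the group mean. The panel marked 2nd set is the other probe set of Cdkn1b. Cdkn1b is the only member whose 2 Hif1a-/- arrays both lie below both WT arrays, on either probe set, and for 7 of the 9 members WT replicate 1 is the highest array.

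Cdkn2a, whose products have been a subject of published work on these cells, read 9.20 and 8.92 on WT replicates 1 and 2 and 9.07 and 9.28 on Hif1a-/- replicates 1 and 2. The groups overlapped, since Hif1a-/- replicate 1 lay between the WT arrays. The WT mean was 9.06 ± 0.19 (SD, n = 2), and the Hif1a-/- mean was 9.17 ± 0.15 (SD, n = 2). The difference was 0.11 ± 0.15 (SE; limma p 0.480, adjusted 0.999). As a ratio it was 1.08, with a 95% interval from 0.839 to 1.40. The difference was 0.25 without WT replicate 1, 0.22 without Hif1a-/- replicate 1, 0.010 without Hif1a-/- replicate 2 and -0.022 without WT replicate 2. The annotation assigns the probe set (10514340) transcripts of both the p16Ink4a and the p19Arf form, so its value does not separate them.

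Cdkn2b encodes p15Ink4b, an inhibitor induced by TGF-beta, and its gene neighbours Cdkn2a. It read 9.51 and 9.01 in WT and 9.31 and 9.36 in Hif1a-/- cells. Both Hif1a-/- arrays lay between the WT arrays, which were 0.50 apart. The difference was 0.07 ± 0.18 (SE), with a limma p of 0.704 and a ratio of 1.05 (95% interval 0.774 to 1.43). It was 0.32 without WT replicate 1 and -0.18 without WT replicate 2.

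Cdkn2c encodes p18Ink4c, an inhibitor known to limit the self-renewal of blood stem cells. It read 9.45 and 9.18 in WT and 9.08 and 9.36 in Hif1a-/- cells, with groups that overlapped. The means were 9.32 ± 0.19 (SD, n = 2) and 9.22 ± 0.19 (SD, n = 2), and the difference was -0.10 ± 0.16 (SE), with a limma p of 0.561. It was 0.038 without WT replicate 1 and 0.039 without Hif1a-/- replicate 1, and -0.24 without either of the other arrays.

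Cdkn2d encodes p19Ink4d, an Ink4 protein unrelated to p19Arf. It read 9.97 and 9.31 in WT and 9.60 and 9.41 in Hif1a-/- cells, so both Hif1a-/- arrays lay between the WT arrays. The gap of 0.66 between the WT arrays was the widest of any member, and the SE of 0.22 the largest. The difference was -0.14, with a limma p of 0.564 and a ratio of 0.910 (95% interval 0.626 to 1.32). It was 0.19 without WT replicate 1. Without WT replicate 2 it was -0.47, past the threshold (limma adjusted p 0.0458), in a fit that called 1442 genes in all (7.23%) and rests on a lone WT array assumed to vary like the Hif1a-/- pair.

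The 4 Ink4 genes were split, with Cdkn2a and Cdkn2b higher in mean and Cdkn2c and Cdkn2d lower, and had a median difference of -0.013 beside 0.034 over all genes.

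Cdkn1b encodes p27Kip1, an inhibitor whose level is set largely by protein turnover. On the probe set with the higher mean (10542310) it read 10.42 and 10.19 in WT and 10.12 and 10.01 in Hif1a-/- cells. The Hif1a-/- pair lay entirely below the WT pair, which held for 1 of the 9 members and for 9.05% of all genes, while 0 members and 15.7% of all genes had both above. The means were 10.30 ± 0.16 (SD, n = 2) and 10.07 ± 0.08 (SD, n = 2). The difference was -0.24 ± 0.14 (SE), with a limma p of 0.137 (adjusted 0.999) and a ratio of 0.849 (95% interval 0.673 to 1.07). It was -0.12 without WT replicate 1 and -0.35 without WT replicate 2. Without Hif1a-/- replicates 1 and 2 in turn it was -0.29 and -0.18.

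The other Cdkn1b probe set (10542317) read 8.73 and 8.50 in WT and 8.01 on both Hif1a-/- arrays. Its Hif1a-/- pair also lay entirely below the WT pair, as for 11.4% of the 35556 probe sets of the table. The difference was -0.61 ± 0.14 (SE), a ratio of 0.657 (95% interval 0.519 to 0.831), with a limma p of 0.00528, which was 1.00 once adjusted over all probe sets. With 1 array left out it ran from -0.72 to -0.49. The sets had the same sign and different sizes, and the mean of both gave a difference of -0.42 with a limma p of 0.0192 (adjusted 1.00). The annotation pairs both sets with the same RefSeq transcript.

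Cdkn1c encodes p57Kip2, an imprinted inhibitor linked to stem cell quiescence. It read 8.86 and 8.71 in WT and 8.64 and 8.72 in Hif1a-/- cells, with Hif1a-/- replicate 2 between the WT arrays. The difference was -0.10 ± 0.13 (SE), with a limma p of 0.447 and a ratio of 0.931 (95% interval 0.752 to 1.15). It was -0.028 without WT replicate 1 and -0.18 without WT replicate 2. Its groups did not overlap once array medians were centred or the arrays quantile normalized again, where 2 members, Cdkn1b and Cdkn1c, lay below. The share of all genes below under these settings is not given here.

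**Figure D2:**
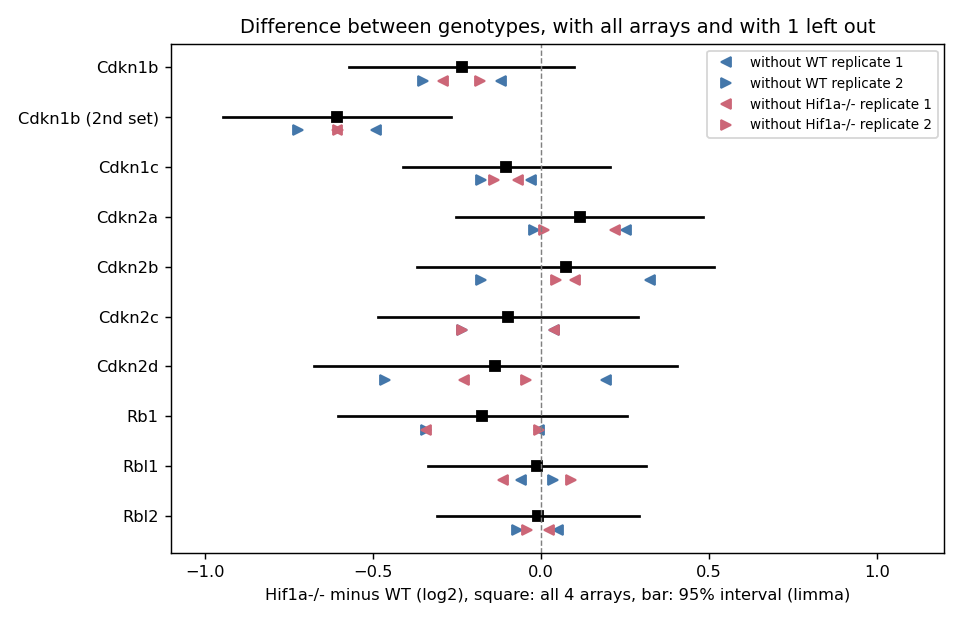
Difference between genotypes for each member (x axis, Hif1a-/- minus WT in log2 units), with a square for the estimate from all 4 arrays, a bar for its 95% limma interval and triangles for the value with 1 array left out. All intervals of the 9 members span 0, that of the other Cdkn1b probe set runs from -0.95 to -0.27, and 6 members lie on opposite sides of 0 without WT replicate 1 and without WT replicate 2.

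Rb1 encodes the retinoblastoma protein. It read 11.22 and 10.88 in WT and 11.04 and 10.70 in Hif1a-/- cells, with replicate 1 above replicate 2 by 0.34 in both groups. The groups overlapped, and the difference was -0.17 ± 0.18 (SE), with a limma p of 0.364 and a ratio of 0.886 (95% interval 0.658 to 1.19). It was -0.34 without WT replicate 2 or without Hif1a-/- replicate 1, and -0.0055 and -0.0058 without WT replicate 1 and Hif1a-/- replicate 2.

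Rbl1 encodes p107, a pocket protein made mainly in cycling cells and itself an E2F target. It read 10.87 and 10.97 in WT and 11.01 and 10.81 in Hif1a-/- cells, so both WT arrays lay between the Hif1a-/- arrays. The difference was -0.012 ± 0.13 (SE), with a limma p of 0.931 and a ratio of 0.992 (95% interval 0.793 to 1.24). Rbl1 was the only member lower on WT replicate 1 than on WT replicate 2. Its sign turned without WT replicate 2 (0.036) and without Hif1a-/- replicate 2 (0.089).

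Rbl2 encodes p130, the pocket protein that dominates in quiescent cells, where it forms the DREAM repressor complex. It read 10.47 and 10.34 in WT and 10.36 and 10.43 in Hif1a-/- cells, and both Hif1a-/- arrays lay between the WT arrays. The difference was -0.0093 ± 0.13 (SE), with a limma p of 0.943 and a ratio of 0.994 (95% interval 0.806 to 1.22). It had the smallest SE of the 9 members. Its sign turned without WT replicate 1 (0.052) and without Hif1a-/- replicate 1 (0.024).

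Over the 9 members, the Hif1a-/- mean was the lower one for 7 and the higher one for 2, where 38.6% of all genes were lower and 61.4% higher. Their median difference was -0.10, against 0.034 over all genes. The 2 with a higher mean were the neighbours Cdkn2a and Cdkn2b. Every sign held under the 10 alternatives that kept all arrays, as did the absence of a call. Only renewed quantile normalization, centred medians and, for Cdkn1b alone, the mean of probe sets changed the differences themselves. The other alternatives left each difference as it was, so no sign could turn under them. With 1 array left out the sign turned for 6 of the 9: the 4 Ink4 genes, Rbl1 and Rbl2.

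For most members the WT arrays stood further apart than the genotypes. The difference between genotypes was smaller than the gap between the WT arrays for 8 of the 9 members, as for 75.5% of all genes, the exception being Cdkn1b (-0.24 against 0.23). WT replicate 1 read above WT replicate 2 for 8 of the 9, beside 54.5% of all genes, with a median gap of 0.27 against 0.032. It was the highest of the 4 arrays for 7 of the 9 and for 26.6% of all genes. Between the Hif1a-/- arrays, replicate 1 read higher for 4 of the 9, and the median gap was -0.055. Without WT replicate 1, 4 members (Cdkn2a, Cdkn2b, Cdkn2d and Rbl2) had both Hif1a-/- arrays above the remaining WT array, as did 43% of all genes. Without WT replicate 2, 7 members had both below, all but Cdkn2a and Rbl1, beside 30.7% of all genes. Granulocyte markers and the stem and progenitor cell genes also separated the WT arrays, as given above, and their part in the members' gap was not tested.

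**Figure D3:**
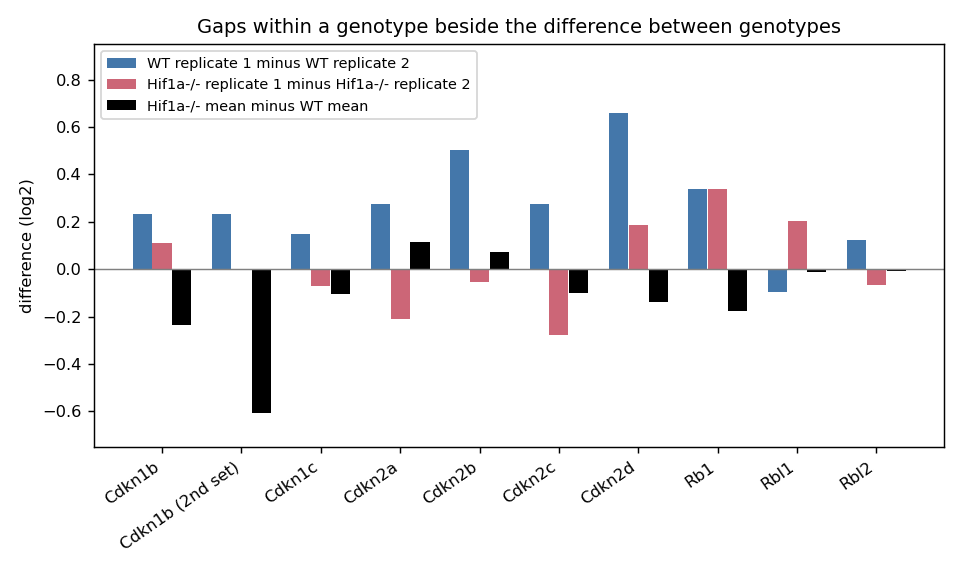
Signed differences in log2 units (y axis) for each member: WT replicate 1 minus replicate 2 (blue), Hif1a-/- replicate 1 minus replicate 2 (red), and the Hif1a-/- mean minus the WT mean (black). The blue bars reach 0.66 for Cdkn2d and 0.50 for Cdkn2b, and the black bar exceeds the blue one in size for Cdkn1b alone, on either probe set.

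The genes around the members were described with 8 lists, 148 measured genes of 155 listed in all. In these lists 0 genes passed the threshold and 0 had an unadjusted limma p under 0.05, while 7 had both Hif1a-/- arrays above and 12 both below the WT arrays, where 15.7% of all genes lay above and 9.05% below. Those shares are also the background of the counts for single lists. For counts of genes with a higher mean, the share over all genes was 61.4%. The kinases and cyclins that the inhibitors act on came first: of 14 G1 cyclins and CDKs, 8 were higher and 6 lower in mean, with a median difference of 0.039. The smallest p values there were those of Ccnd3, a D cyclin (-0.16), Ccne1, cyclin E1 (0.17), and Cdk7, of the CDK-activating kinase (0.15). Of 15 genes for turnover of the inhibitor proteins, 11 had a higher mean, with a median of 0.053. Rnf123, a ubiquitin ligase for p27Kip1, differed by 0.19, Fzr1, an activator of the anaphase-promoting complex, by 0.16 and Fbxw7, the receptor that marks cyclin E for destruction, by -0.13. Without WT replicate 1 the counts with a higher mean were 3 of the cyclins and CDKs and 5 of the turnover genes, and the latter count was 7 without Hif1a-/- replicate 1.

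Downstream of the pocket proteins, 15 of 18 E2F, DREAM and MuvB genes had a higher mean in Hif1a-/- cells, with a median of 0.059. E2f4, the E2F that p130 holds in quiescent cells, differed by 0.29, the repressor E2f6 by 0.23 and the MuvB subunit Lin54 by 0.09. Of 21 measured E2F target genes 20 had a higher mean, with a median of 0.10 against 0.034 over all genes. Cdc6, a loader of the replicative helicase, differed by 0.22, and the helicase subunits Mcm2 and Mcm7 by 0.18 and 0.15. The limma p of these 6 genes ran from 0.160 to 0.498. Without WT replicate 2, E2f6 passed the threshold (0.49, limma adjusted p 0.0375), as did 7.23% of all genes, and without WT replicate 1 it stood at -0.033. With 1 array left out E2f4 ran from 0.084 to 0.49 with no call. The count of target genes with a higher mean was 8 without WT replicate 1 and 7 without Hif1a-/- replicate 1. That of the E2F, DREAM and MuvB genes was 7 without Hif1a-/- replicate 1. Once array medians were centred, the counts were 17 for the target genes and 12 for the E2F, DREAM and MuvB genes.

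Of 24 measured regulators of the Ink4 and Arf locus, 14 had a lower mean, with 5 below and 1 above without overlap and a median of -0.061. Dmtf1, an activator of Arf transcription, read 9.35 and 9.64 in WT and 9.19 and 9.09 in Hif1a-/- cells. Its groups did not overlap, and the difference was -0.35 ± 0.15 (SE), with a limma p of 0.0503 (adjusted 0.999). It was -0.50 without WT replicate 1 (limma p 0.00136, adjusted 0.0647) and -0.21 without WT replicate 2 (limma p 0.141). Cbx8 and Eed, subunits of the Polycomb complexes that silence the locus, differed by -0.16 and -0.14. Of 15 FoxO, TGF-beta and Myc regulators of the inhibitor genes, 12 had a lower mean, with a median of -0.087. Smad4, the common mediator of TGF-beta signals, differed by -0.22, its receptor gene Tgfbr2 by -0.17 and Mycn by -0.45. The WT arrays were 0.89 apart for Mycn, which differed by -0.89 without WT replicate 1 (limma adjusted p 0.00170, in a fit that called 1.75% of all genes) and by -0.0029 without WT replicate 2. Of the 24 locus regulators, 6 had a higher mean once array medians were centred, 14 without WT replicate 2 and 13 without Hif1a-/- replicate 2, in place of 10, so the side with more genes turned with 1 array. Of the 15 in the FoxO, TGF-beta and Myc list, 1 had a higher mean without WT replicate 1, 7 without WT replicate 2 and 6 without Hif1a-/- replicate 2, in place of 3.

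With Trp53 itself not analysed here, its regulators and targets were read. Of 18 measured regulators of p53, 9 were higher and 9 lower in mean, all with overlapping groups and differences between -0.052 and 0.12. Without WT replicate 1 only 2 had a higher mean, and without WT replicate 2 there were 16. The checkpoint kinase gene Chek1 differed by 0.12, the p53 inhibitor Mdm4 by 0.07 and the nucleolar Npm1 by 0.08. Of 23 measured p53 target genes of 25 listed, 9 were higher and 14 lower in mean, with 2 above and 2 below without overlap and a median of -0.031. The listed targets Cdkn1a, itself a CDK inhibitor gene, and Bax had no value here. Perp, a membrane protein of p53 apoptosis, read 11.36 and 10.81 in WT and 10.60 and 10.75 in Hif1a-/- cells, a difference of -0.41 with a limma p of 0.0823. The antiproliferative Btg2 differed by -0.33 and the RNA-binding Zmat3 by 0.26. Without WT replicate 2, Perp (-0.69, limma adjusted p 0.00398), Btg2 (-0.63, 0.00654) and Zmat3 (0.52, 0.0197) passed the threshold, as did 7.23% of all genes. Without WT replicate 1 they stood at -0.13, -0.023 and -0.0029. Of the 24 genes named from the 8 lists, 9 turned sign with 1 array left out.

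**Figure D4:**
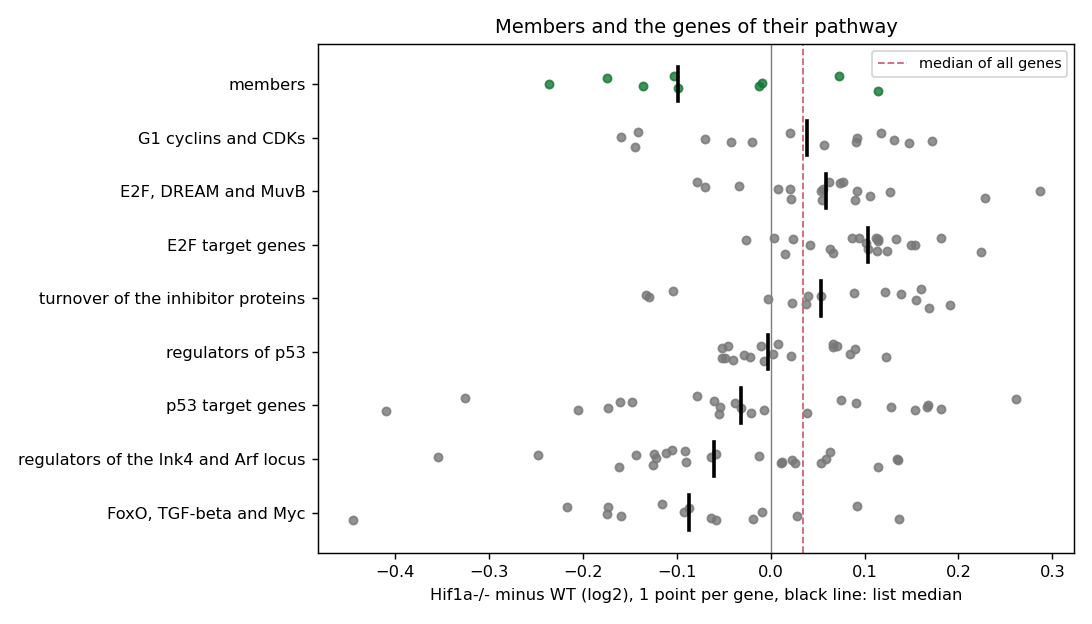
Difference between genotypes (x axis, Hif1a-/- minus WT in log2 units) for the 9 members in green and the genes of the 8 pathway lists in grey, 1 point per gene, with a black line at each list's median and a dashed line at the median of all genes, 0.034. List medians run from -0.10 for the members to 0.10 for the E2F target genes, and every gene shown lies within 0.5 of 0.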

How the data were processed

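The authors deposited log2 expression values for 35556 probe sets on 4 arrays, made with Affymetrix Expression Console 1.1 and RMA per the submitters' processing notes, with further settings not given in the sources used here. RMA corrects background, equalises the arrays by quantiles and summarises probes, so a change of total RNA per cell is scaled out. The values ran from 3.07 to 14.71.

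The platform annotation named the probe sets: 21789 carried 1 symbol, 1621 several and 12146 were unnamed here. Each gene was read from its single-symbol probe set with the highest mean, giving 19938 genes. Genotype was tested on all genes with limma 3.58.1 (lmFit, eBayes; R 4.3.3) (2 residual and 4.46 prior degrees of freedom) with Benjamini-Hochberg adjustment at 0.05. Probe sets beyond the highest were read from a separate limma fit over all 35556 probe sets, with its own adjustment. With 2 arrays a group, the smallest two-sided p of an exact permutation test is 0.333. The fit was run on simulated data with changes larger than any member's, so that run does not cover differences of the members' size.

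The members, the pathway and marker lists and the rule for named genes (all members, Hif1a, and the 3 genes of smallest p in each pathway list) were chosen with earlier results of these data known. Marker genes, Xist and genes called under alternatives were named with their values known. The number of arrays limits the precision, with a median SE of 0.14 over all genes. No genes alike in pattern were sought, since 4 arrays are too few for a correlation.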

Additional observations from a re-analysis of the deposited data

How the results depend on the processing

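The 10 settings that kept all 4 arrays left the sign and the absence of a call of each single probe set value (95 of 95 values). Most of them refit the same values. A sign could turn only under renewed quantile normalization, centred medians or, for Cdkn1b, the mean of probe sets. Centred medians and the renewed quantile normalization each gave 2 members below without overlap in place of 1. The 9.05% of all genes below belongs to the values as deposited, and the share under these settings is not given here. The mean of all probe sets gave 1 member (Cdkn1b) past an unadjusted limma p of 0.05. Over all genes, 0 calls became 1 with a variance trend (Sva), 2 with robust fitting (Mcpt4 and Sva) and 334 at an unadjusted p. Among the regulators of the Ink4 and Arf locus, 1 gene (Dmtf1) had an unadjusted p under 0.05 after renewed quantile normalization, centred medians or the mean of probe sets, and 2 (Cbx8 and Eed) with the floor.

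The deviations of same-numbered arrays from their group means had a correlation of -0.0072. The arrays of a group deviate by equal and opposite amounts, so this is a single comparison. It cannot decide whether the numbers pair the arrays, and pairing was not tested otherwise. The replicate block gave 47 calls over all genes, none of them a member, and 1 p53 target (Perp) and 1 FoxO, TGF-beta and Myc regulator (Mycn) past an unadjusted p of 0.05.

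With 1 array left out, members ranged from 0 to 4 above and from 1 to 7 below without overlap, from 0 to 3 past an unadjusted p of 0.05, and calls over all genes from 2 to 1442. The differences ran from -0.022 to 0.25 for Cdkn2a, -0.18 to 0.32 for Cdkn2b, -0.24 to 0.039 for Cdkn2c, -0.47 to 0.19 for Cdkn2d, -0.11 to 0.089 for Rbl1 and -0.070 to 0.052 for Rbl2. Those that kept their sign ran from -0.35 to -0.12 for Cdkn1b, -0.18 to -0.028 for Cdkn1c and -0.34 to -0.0055 for Rb1. Genes past an unadjusted p of 0.05 numbered 0 to 5 among G1 cyclins and CDKs and among E2F, DREAM and MuvB genes, 0 to 3 among E2F targets and turnover genes, 0 to 4 among p53 regulators, Ink4 and Arf regulators and FoxO, TGF-beta and Myc regulators, and 0 to 8 among p53 targets. With all arrays 15.7% of all genes lay above and 9.05% below without overlap. Without WT replicate 1, 43% lay above, and without WT replicate 2, 30.7% lay below. The share of all genes past an unadjusted p of 0.05 with 1 array left out is not given here. Counts past that p therefore cannot be read as an effect on the members or on a list. The lists held from 14 (G1 cyclins and CDKs) to 24 measured genes (Ink4 and Arf regulators), and that of p53 targets 23. A lone array was assumed to vary like the other pair, and the cause of the shifts was not tested.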
